A study of Mus musculus with 4 samples.

Results

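The endothelin system comprises 3 ligand genes (Edn1, Edn2 and Edn3), 2 converting enzyme genes (Ece1 and Ece2) and 2 receptor genes (Ednra and Ednrb). All 7 had a row among the 27179 genes counted, and 3 of them, Edn1, Ece1 and Ece2, passed the filter on low counts, as did 13897 genes in all. The family was selected on its gene symbols with the low Edn1 level after treatment already known. The comparison of treated with control libraries is therefore given for the members as a description. It holds intervals and calls but no p-value, and nothing is read from those calls or their share.

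RNA was sequenced from mAEC cells, a line of murine aortic endothelial cells that models the inner lining of a large artery in culture. The 2 control libraries came from cells labelled control, which the series describes as grown in normal medium. The 2 conditioned medium libraries came from cells given the supernatant of macrophages positive for TNFα and CD68. The genotype, strain, age and sex of the source animals, the dose and the exposure time are not stated in the sources used here, and no transgene or other agent is named. All libraries are from the same line, so they speak for that line, and nothing states that the replicates came from separate cultures, so the errors may be technical. Gene counts summed to between 13815695 and 18005840 per library, at which 3 counts equal 0.166 to 0.216 CPM, the usual count rate scaled to the library total after TMM normalisation.

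Endothelins are short vasoactive peptides cut in steps from long precursors. Furin-type proteases release an inactive intermediate called big endothelin, and endothelin-converting enzymes then trim it to the active peptide. Endothelial cells are the main source of endothelin-1, the Edn1 product, in the vessel wall. There it acts on the ETA receptor of smooth muscle, which drives contraction, and on the ETB receptor, which in endothelium triggers nitric oxide release and clears the peptide from the circulation. Endothelin-3 and ETB are best known from the development of neural crest cells.

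The coding stretches of the active peptides are shown to compare the 3 ligand genes in sequence. A script located each as 21 codons with 4 cysteines and a final tryptophan at fixed spacing, in GENCODE M21 transcripts on GRCm38, the same build as mm10. Each lies on the plus strand in exon 2 of its gene: Edn1 at chr13:42303649-42303711, Edn2 at chr4:120161951-120162013 and Edn3 at chr2:174761749-174761811. They are printed 5′ to 3′ as the plus strand reads, with the cysteine codons in capitals. Those cysteines form the disulfide bridges that fold the peptide.
Edn1: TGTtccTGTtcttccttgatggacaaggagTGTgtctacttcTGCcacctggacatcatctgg
Edn2: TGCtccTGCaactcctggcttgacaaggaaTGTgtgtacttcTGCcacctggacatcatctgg
Edn3: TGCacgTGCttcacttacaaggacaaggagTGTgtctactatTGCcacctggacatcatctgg
Over these 63 bases Edn2 differed from Edn1 at 10 positions and Edn3 at 13, which changes 3 and 6 of the 21 residues. The precursors are 202, 175 and 214 residues long.

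Among the ligands Edn1 alone was detected, and it fell in conditioned medium. Edn1, on chromosome 13 from 42301476 to 42307990 in mm10, had 157 and 201 counts in the control libraries and 54 and 69 counts in the conditioned medium libraries. Scaled to library size these were 10.6 and 13.8 CPM in control and 3.90 and 3.82 CPM in conditioned medium. Both control libraries were high, both treated libraries were low, and the groups did not overlap.

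The Edn1 mean was 12.2 ± 2.21 CPM in control and 3.86 ± 0.0508 CPM in conditioned medium (mean ± SD, n = 2). The log2 fold change was -1.66 ± 0.17 (SE), with a 95% interval from -2.01 to -1.31, which is 3.16-fold lower. Of the 13897 genes tested, 4 had a lower log2 fold change when no minimum level was set. The family was chosen with the low Edn1 level known, so this rank is a description. The control libraries differed from each other by 1.29-fold, and their exact Poisson 95% intervals, which cover counting error only, ran from 9.03 to 12.4 and from 11.9 to 15.8 CPM. The treated libraries differed by 1.02-fold, with intervals from 2.93 to 5.08 and from 2.98 to 4.84 CPM. Even the lowest control library stood 2.73-fold above the highest treated library. In a bulk sample, a lower level per cell and fewer cells that express the gene cannot be told apart.

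Edn2, on chromosome 4 from 120161206 to 120167360, and Edn3, on chromosome 2 from 174760619 to 174784042, had 0 counts in every library. A count of 0 allows up to 0.203 and 0.205 CPM in the control libraries and up to 0.216 and 0.166 CPM in the treated ones. Transcripts of Edn2 and Edn3 were thus not detectable at this depth in either group. Rows with 0 counts in all 4 libraries made up 28.8% of the table.

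**Figure D1:**
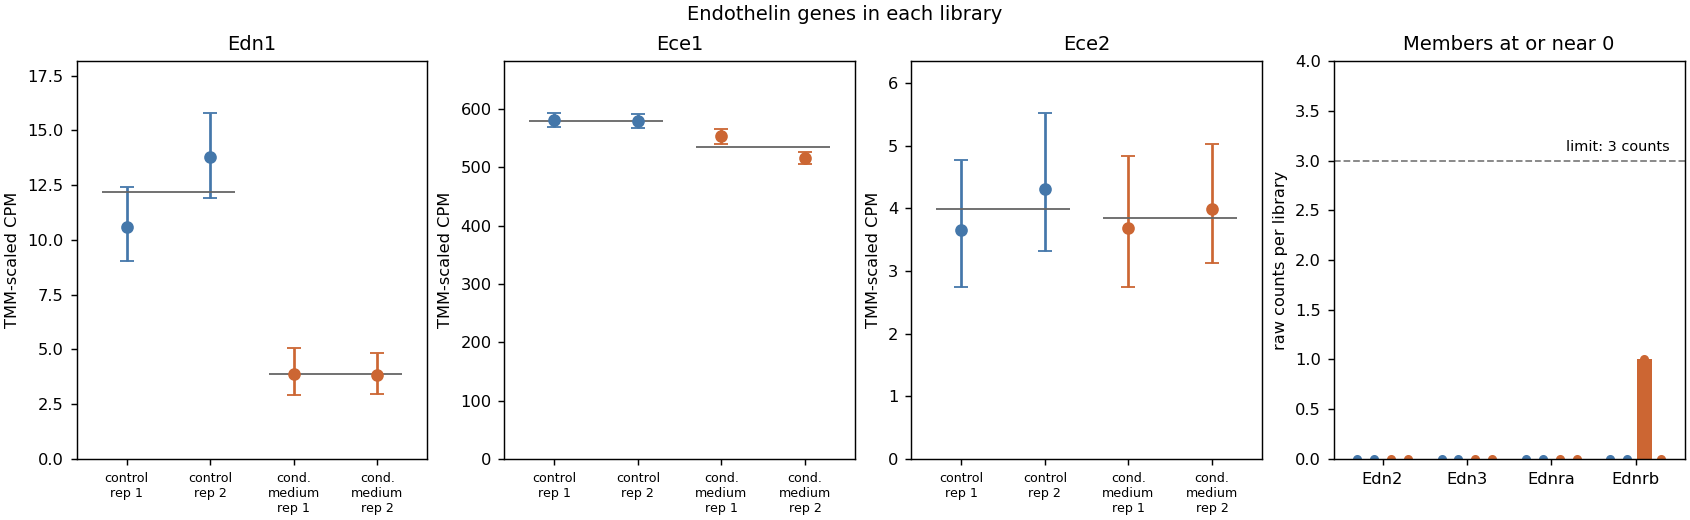
Endothelin genes in each library, with control in blue and conditioned medium in orange. The first 3 panels show TMM-scaled CPM with exact Poisson 95% intervals (counting error only) as bars and group means as grey lines; Edn1 lies at 10.6 and 13.8 CPM in control and at 3.90 and 3.82 CPM in conditioned medium, while Ece2 overlaps between the groups. The last panel gives raw counts of the other 4 members, all at 0 except 1 count of Ednrb, with a dashed line at 3 counts.

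The converting enzymes differed from each other far more than either differed between the groups. Ece1, on chromosome 4 from 137862237 to 137965229, encodes the membrane metalloprotease that is the main producer of active endothelin in blood vessels. It had 8576 and 8471 counts in control and 7659 and 9305 in conditioned medium, which is 581 and 580 CPM against 553 and 516 CPM. Both treated libraries lay below both control libraries, by as little as 1.05-fold.

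The Ece1 mean was 580 ± 0.789 CPM in control and 534 ± 26.1 CPM in conditioned medium (n = 2), and the log2 fold change was -0.12 ± 0.04 with an unadjusted 95% interval from -0.21 to -0.03. It was not called after adjustment over all genes. That call depended on the setting: Ece1 was called at the same log2 fold change of -0.12 without control replicate 1 and without control replicate 2. Leaving out conditioned medium replicate 2 moved it to -0.07 and leaving out replicate 1 to -0.17, without a call.

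Ece2, on chromosome 16 from 20629851 to 20645915, encodes a related enzyme known mainly from neural tissue. Its counts were 54 and 63 in control and 51 and 72 in conditioned medium, which is 3.66 and 4.31 CPM against 3.68 and 3.99 CPM. The groups overlapped and no library stood apart. The log2 fold change was -0.05 ± 0.21, with an interval from -0.48 to 0.38, so a change of moderate size either way lies within the error. RefSeq annotates a read-through gene, Eef1akmt4-ece2, over the whole of Ece2. That gene had no row of its own here, so reads of the read-through transcripts cannot be told apart from those of Ece2.

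A call is an adjusted p under 0.05 over all genes tested. Of the 3 members tested, Edn1 was called lower and Ece1 and Ece2 were not called. As the low Edn1 level was known when the family was chosen, these calls are a description and no test. Of all genes tested 16.8% were called, 8.23% lower and 8.53% higher. The groups did not overlap in CPM for Edn1 and Ece1, as for 57.2% of all genes tested. The median log2 fold change of all genes tested was 0.00.

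The receptors were at or near 0. Ednra, which encodes ETA and lies on chromosome 8 from 77663029 to 77724452, had 0 counts in every library. The limit of 3 counts was the same as for Edn2, at 0.166 to 0.216 CPM. Ednrb, which encodes ETB and lies on chromosome 14 from 103814615 to 103844508, had 1 count in conditioned medium replicate 1, equal to 0.0721 CPM, and 0 counts in the other 3 libraries. That is 1 count for Edn2, Edn3, Ednra and Ednrb together out of 61282120. No difference between the groups could be assessed for any of these 4 genes.

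Levels were compared between genes on a scale per length, as TMM-scaled CPM per kilobase of the union of GENCODE exons (5300 bases for Ece1, 2139 for Edn1 and 5110 for Ece2). On this scale Ece1 had 110 and 109 in control and 104 and 97.3 in conditioned medium. Edn1 had 4.97 and 6.43 in control and 1.82 and 1.79 in conditioned medium, and Ece2 had 0.716 and 0.844 against 0.720 and 0.781. The order from Ece1 to Edn1 to Ece2 was the same in every library, and no library of a lower gene reached one of a higher gene.

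The ratio of the Ece1 level to the Edn1 level per length was 22.0 and 17.0 in the control libraries and 57.2 and 54.4 in the treated ones. The Edn1 level stood 6.95 and 7.62 times above that of Ece2 in control and 2.53 and 2.29 times above it in conditioned medium. With the longest transcript as the length, a setting added after the data were seen, the mean ratio of Edn1 to Ece2 was 4.91 ± 0.322 in control and 1.62 ± 0.114 in conditioned medium (n = 2), so the size of this gap rests on the gene model of Ece2. By CPM in control, Ece1 ranked 204 of the 13897 genes tested, Edn1 9054 and Ece2 11534. Ece2 made up 0.682% ± 0.0795 of the counts of both converting enzymes in control and 0.715% ± 0.0752 in conditioned medium (n = 2).

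**Figure D2:**
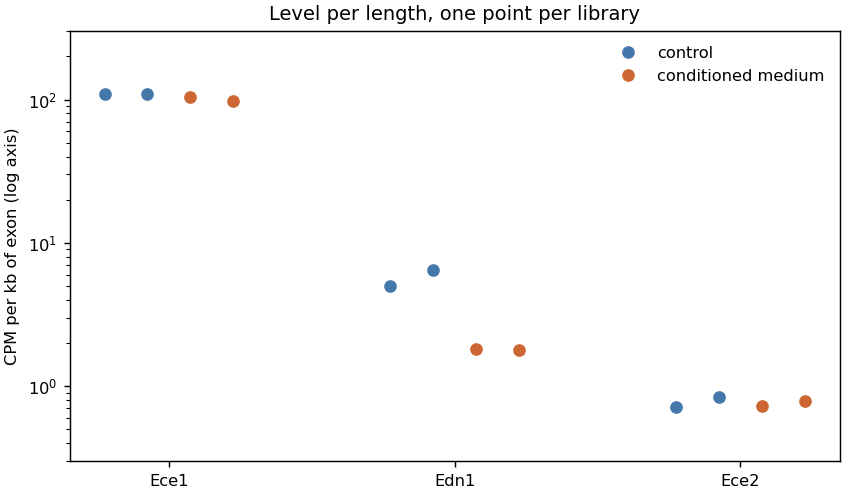
Level per length of the 3 detected endothelin genes, as CPM per kilobase of exon on a log axis, with a point for each library (control blue, conditioned medium orange). Ece1 lies near 100, Edn1 goes from 4.97 and 6.43 to 1.82 and 1.79, and Ece2 stays under 1 in every library.

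The labelled cell type was checked against fixed marker lists. Of 12 endothelial markers 11 passed the filter. Summed levels of the 12 were 7311 and 7315 CPM in control and 7590 and 7507 CPM in conditioned medium. Among the 11 tested, 3 were called higher and 2 lower, where 8.53% of all genes tested were called higher and 8.23% lower. Pecam1 and Cdh5 had the highest levels, with means of 2414 and 1908 CPM in control. Vwf was low, with means of 2.9 CPM in control and 2.88 CPM in conditioned medium. Cldn5, the claudin of endothelial tight junctions, had 1 count in all. Of 5 lymphatic endothelial markers 3 passed, with summed levels of 2361 to 2432 CPM. Lyve1 held most of the sum, with means of 2014 CPM in control and 2023 CPM in conditioned medium. Flt4 stood at 353 and 365 CPM, and Pdpn, the 1 called higher, at 8.27 and 13.7 CPM. Prox1, the factor that defines lymphatic endothelium, had 2 counts in all, and Ccl21a had 1.

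Smooth muscle is the usual site of ETA. Of 8 smooth muscle markers 3 passed and none was called. Their summed levels were 229 and 239 CPM in control and 244 and 242 CPM in conditioned medium. Smtn, which other cells also express, held most of the sum, with 224 and 235 CPM in control and 239 and 237 CPM in conditioned medium. Acta2 and Myh11 had at most 10 counts per library. Of 10 macrophage markers 3 passed and none was called, with summed levels of 230 and 260 against 253 and 260 CPM. Adgre1, Mrc1 and Marco had 0 counts, and Cd68 held most of the sum in both groups. The 8 fibroblast markers had summed levels of 60.2 and 65.5 against 78.3 and 77.9 CPM, and 3 passed, with Col1a2 and Lum at 0. The 2 called higher were Pdgfra and Pi16, where 8.53% of all genes tested were called higher. Neither was called by DESeq2 or with 1 treated library left out, nor Pdgfra without control replicate 1. The part of these cell types in the Edn1 result was not tested.

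Most genes listed as cutting or clearing endothelin did not pass the filter, though not all of these lacked reads. Phex, for example, had 8 and 9 counts in control and 8 and 9 in conditioned medium. The list does not hold Ece1 and Ece2. Of 12 listed, 4 passed the filter, 1 was called higher and none lower, with a median log2 fold change of 0.06, where 8.53% of all genes tested were called higher and 8.23% lower. Furin, the protease that releases big endothelin from its precursor, had 115 and 125 CPM in control and 164 and 164 CPM in conditioned medium. It was higher in both treated libraries, by 0.45 ± 0.05 on the log2 scale (edgeR adjusted p = 2.40e-06). Pcsk7, another proprotein convertase, had a log2 fold change of 0.07 ± 0.10 and was not called.

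Neprilysin, encoded by Mme, degrades endothelin. It had 1 count, in control replicate 2, and was not tested. Ctsa, a lysosomal carboxypeptidase that can also inactivate the peptide, stood at 172 ± 1.26 and 178 ± 1.85 CPM (n = 2), and Mmp2, a gelatinase that can cut big endothelin, at 7.86 ± 0.472 and 6.46 ± 0.264 CPM. Neither was called (edgeR adjusted p = 0.502 and 0.237). Kel, which encodes a metalloprotease that can process big endothelins, and Cma1, a mast cell protease gene, had 0 counts in every library.

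All 21 listed regulators of endothelin gene transcription passed the filter, and 4 were called higher and 1 lower, with a median log2 fold change of 0.09. Among all genes tested 8.53% were called higher and 8.23% lower. Gata2, a GATA factor that activates the human EDN1 promoter, had 80.9 and 85.1 CPM in control and 102 and 102 CPM in conditioned medium (log2 fold change 0.29 ± 0.05; edgeR adjusted p = 4.40e-04). Klf2, the flow-induced factor that represses endothelin expression in endothelium, had 156 and 155 CPM against 182 and 177 CPM (0.20 ± 0.05; edgeR adjusted p = 0.00338). Hif1a, the hypoxia-inducible factor, went from 602 and 590 to 695 and 706 CPM (0.23 ± 0.04; edgeR adjusted p = 4.59e-04). In these 3 genes every treated library lay above every control library. Among all genes tested, 57.2% had groups that did not overlap, in either direction.

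Nfkb1, which encodes an NF-kB subunit, fell from 103 and 103 to 87.8 and 88.7 CPM (log2 fold change -0.22 ± 0.05; edgeR adjusted p = 0.00403). Smad3, a mediator of TGF-beta signalling, rose from 118 ± 1.35 to 131 ± 2.26 CPM (n = 2; edgeR adjusted p = 0.0307). The other 16 listed regulators were not called; they were the AP-1 subunit genes Jun, Junb, Jund, Fos, Fosb, Fosl1 and Fosl2, together with Klf4, Epas1, Arnt, Foxo1, Smad2, Smad4, Rela, Vezf1 and Pparg. Without conditioned medium replicate 1 or replicate 2 the calls of Klf2, Hif1a, Nfkb1 and Smad3 were lost, Nfkb1 and Smad3 also in DESeq2 and Smad3 with no count filter. Over the alternatives the edgeR and other adjusted p ran from 1.69e-04 to 0.127 for Klf2, from 9.92e-12 to 0.0997 for Hif1a, from 9.82e-04 to 0.0987 for Nfkb1 and from 0.0138 to 0.316 for Smad3.

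The promoter window of Edn1 is shown because Edn1 was the member that fell and its known regulators were measured. It covers 250 bases before the annotated start and 50 from it, at chr13:42301226-42301525 on the plus strand, from RefSeq on GRCm38.p6, with 51.3% G and C. All 7 members had at least 1 window in that table. Capitals mark matches to TTATCT, the motif of GATA factors, to ACGTG, the core of the hypoxia response element, and to TGACTAA, the AP-1 variant known from the human promoter, searched on both strands.
Edn1: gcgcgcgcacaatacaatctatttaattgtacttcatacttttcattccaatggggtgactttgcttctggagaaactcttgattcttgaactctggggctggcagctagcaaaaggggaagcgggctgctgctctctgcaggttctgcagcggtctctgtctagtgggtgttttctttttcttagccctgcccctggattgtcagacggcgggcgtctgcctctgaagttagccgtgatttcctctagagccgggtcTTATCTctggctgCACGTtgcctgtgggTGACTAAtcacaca
The GATA match lay at 9 to 14 bases from the annotated start, the hypoxia core, read on the minus strand, at 22 to 26, and the AP-1 variant at 37 to 43. In the human gene these elements stand close together upstream of the start, whereas here the annotated start lies before them.

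The matches did not overlap each other. Of 32851 promoter windows of the same length 11.2% held the GATA motif, 19.6% the hypoxia core and 2.35% the AP-1 variant. The AP-1 consensus TGACTCA, present in 5.20% of windows, was not in the Edn1 window. Among the windows of the other members the hypoxia core was found in 1 window of Ece1 and in that of Ece2, and no other motif was found. A match is a description of letters, and binding was not measured here.

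Receptor coupling and effector genes were expressed although the receptors were not detected. Of 32 listed 29 passed the filter, with 6 higher, 4 lower, 19 not called and a median log2 fold change of 0.00. For all genes tested the shares called were 8.53% higher and 8.23% lower. Gnaq, the G protein subunit that couples endothelin receptors to phospholipase C, fell from 112 and 115 to 102 and 94.9 CPM (-0.20 ± 0.05; edgeR adjusted p = 0.00904). Rgs2, which shortens Gq signalling, fell from 90.8 and 81.3 to 70.8 and 74.1 CPM (-0.25 ± 0.06; edgeR adjusted p = 0.00618). Itpr3, an IP3-gated calcium channel, rose from 179 and 181 to 223 and 218 CPM (0.29 ± 0.04; edgeR adjusted p = 8.37e-05), and Arrb1, a beta-arrestin that uncouples receptors, from 400 and 399 to 482 and 475 CPM (0.26 ± 0.04; edgeR adjusted p = 1.56e-04).

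Among other called members of that list, the phospholipase genes Plcb1 and Plcb3, the G protein gene Gna13 and the exchange factor gene Arhgef1 rose by 0.18 to 0.25 on the log2 scale. The inhibitory G protein gene Gnai3 was at -0.13 ± 0.04. Without either conditioned medium library the calls of Rgs2, Plcb1, Plcb3, Gna13, Arhgef1 and Gnai3 were lost, as was that of Gnaq without replicate 2 of that group. Over the alternatives the adjusted p of Gnaq ran from 7.06e-04 to 0.274 (log2 fold change -0.26 to -0.15) and that of Rgs2 from 3.28e-06 to 0.149 (-0.32 to -0.16). Rgs2 and Plcb1 also lost their calls without control replicate 1. DESeq2 did not call Gnaq, Rgs2, Plcb1, Plcb3, Arhgef1 or Gnai3, and with no count filter Plcb1 and Gnai3 were not called; Gnai3 was not called under upper-quartile or library-total scaling either.

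**Figure D3:**
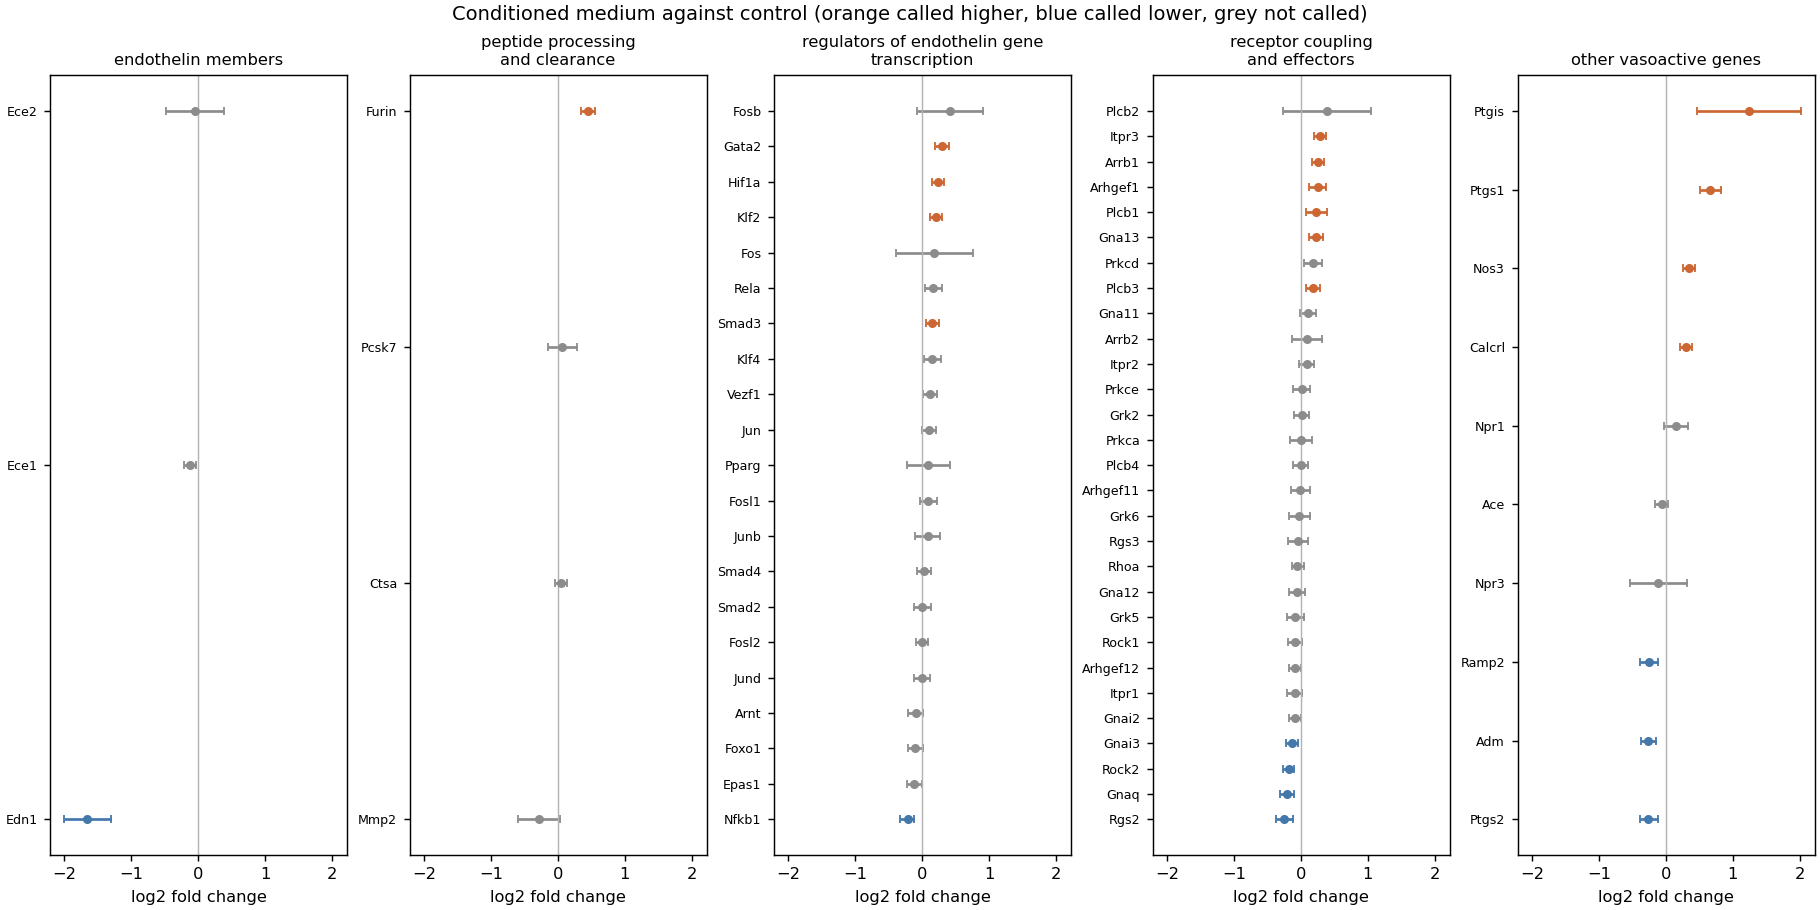
Log2 fold changes of conditioned medium against control for the tested endothelin members and the 4 pathway lists, with unadjusted 95% intervals as bars (n = 2 libraries per group). Orange points were called higher, blue lower and grey not called over all genes tested. Edn1 lies at -1.66 and the listed genes from -0.28 (Mmp2) to 1.24 (Ptgis). The family was chosen with the low Edn1 level known, so its place outside that range is a description.

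Other vasoactive genes of endothelium were divided. Of 14 listed 10 passed the filter, 4 were called higher, 3 lower and 3 not, with a median log2 fold change of 0.04. The shares called among all genes tested were 8.53% higher and 8.23% lower. Nos3, which encodes the endothelial nitric oxide synthase that opposes endothelin, rose from 442 and 470 to 583 and 577 CPM (0.35 ± 0.04; edgeR adjusted p = 1.13e-05). Ptgs1, a cyclooxygenase, rose from 32.4 and 29.4 to 46.8 and 50.7 CPM (0.66 ± 0.07; edgeR adjusted p = 2.77e-06). Ptgis, the prostacyclin synthase gene, had 8 and 14 counts in control and 24 and 33 in conditioned medium (1.24 ± 0.37; edgeR adjusted p = 0.0245), and was not called once control replicate 1 was left out, which moved the log2 fold change to 0.89, nor once either treated library was. DESeq2 gave no adjusted p for Ptgis; over the other 13 alternatives it lay between 0.00891 and 0.215.

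Calcrl, the receptor of the vasodilator adrenomedullin, rose from 182 ± 4.63 to 224 ± 3.14 CPM (n = 2), while its partner Ramp2 fell from 65.9 ± 4.67 to 55.5 ± 1.24 CPM and the adrenomedullin gene Adm from 75.7 ± 1.13 to 63.4 ± 0.0101 CPM. Ptgs2, the inducible cyclooxygenase, fell from 54.3 ± 2.73 to 45.3 ± 2.19 CPM. Ramp2, Adm and Ptgs2 were not called by DESeq2, nor with 1 treated library left out, and Ramp2 not without control replicate 2. Their adjusted p spanned 5.86e-05 to 0.141 for Ramp2, 3.04e-04 to 0.0866 for Adm and 3.69e-04 to 0.176 for Ptgs2. Ace, the converting enzyme of the angiotensin system, had a log2 fold change of -0.06 ± 0.05 and was not called, other than without control replicate 1 (-0.12, adjusted p = 0.0482; up to 0.996 over the alternatives). Over the 4 pathway lists 15 of 64 tested genes were higher and 8 lower, where 8.53% of all genes tested were called higher and 8.23% lower; nothing particular to these lists is read from the counts.

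The genes nearest to each member on the chromosome were examined, 3 protein-coding genes on each side. Of 42 neighbours 31 passed the filter, 5 were called higher and 1 lower, a share near the 16.8% called among all genes tested, so nothing particular to the neighbours is read from it. Around Edn1, 5 of 6 neighbours were tested. The nearest on the left, Hivep1 at 116446 bases, had a log2 fold change of -0.14 ± 0.06 and was not called (edgeR adjusted p = 0.102). The nearest on the right, Phactr1 at 372384 bases, a regulator of actin and phosphatase 1 whose human locus is linked to vascular disease, had 30 and 27 counts in control and 8 and 22 in conditioned medium.

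Phactr1 had a log2 fold change of -1.05 ± 0.36 and was not called (edgeR adjusted p = 0.0507); it was named after its values were seen. Leaving out conditioned medium replicate 1 gave -0.67 and leaving out replicate 2 gave -1.73, and the adjusted p ran from 0.0169 to 0.398 over the 13 alternatives that gave one, which DESeq2 did not. It was called lower in 6 of these 13, among them RLE scaling, the robust spread and limma-voom. Gfod1, at 887250 bases from Edn1, was the neighbour called lower (39.0 ± 0.291 to 31.9 ± 1.08 CPM, n = 2; edgeR adjusted p = 0.00801). DESeq2 did not call it, nor was it called with 1 treated library left out, and its adjusted p spanned 0.00241 to 0.141.

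Around Ece1 all 6 neighbours were tested and 3 were called higher. Sh2d5, an adaptor protein gene at 285182 bases, rose from 73.3 ± 2.75 to 119 ± 2.28 CPM (n = 2; edgeR adjusted p = 1.41e-08). Alpl, which encodes an alkaline phosphatase, rose by 0.71 ± 0.13 and Rap1gap, an inhibitor of the small G protein Rap1, by 0.81 ± 0.20 on the log2 scale; both calls were lost without conditioned medium replicate 2, and that of Rap1gap also in DESeq2. The adjusted p of Alpl spanned 2.65e-05 to 0.0644 over the alternatives and that of Rap1gap 0.00175 to 0.195. Around the undetected Edn2, Hivep3 rose by 0.23 ± 0.06 and Foxo6, a forkhead factor gene with 16 and 24 counts against 43 and 58, by 1.21 ± 0.28. Neither was called by DESeq2 or with 1 treated library left out; the adjusted p spanned 0.0110 to 0.244 for Hivep3 and 6.40e-04 to 0.109 for Foxo6. No neighbour of Edn3, Ece2, Ednra or Ednrb was called by edgeR.

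**Figure D4:**
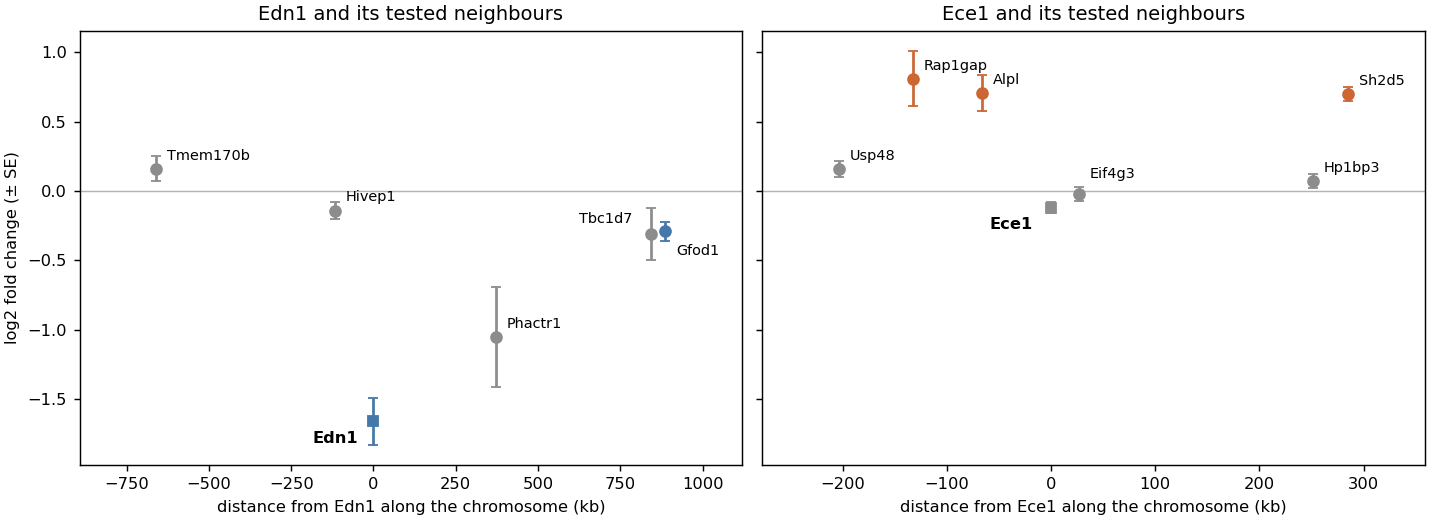
Log2 fold changes (± SE) of Edn1 and Ece1, drawn as squares, and of their tested neighbours, drawn as circles, against distance along the chromosome in kilobases. Beside Edn1 at -1.66 the tested neighbours lie between -1.05 (Phactr1) and 0.16 (Tmem170b), and beside Ece1 at -0.12 the called neighbours Alpl, Rap1gap and Sh2d5 (orange) lie between 0.70 and 0.81.

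The genes whose pattern over the 4 libraries was closest to that of Edn1 were found by the Euclidean distance of log2 CPM centred on each gene's mean, among the 10815 named genes that reached 5 CPM in either group. They were Sult1a1, a sulfotransferase gene (distance 0.38), Gbp3, an interferon-inducible GTPase gene (0.45), and Ifit3, an interferon-induced antiviral gene (0.52). Sult1a1 had 8.33 and 8.55 CPM in control and 3.03 and 3.44 CPM in conditioned medium, and Gbp3 had 23.9 and 24.7 against 10.2 and 10.6 CPM. Ifit3 had 34.9 and 43.5 CPM in control, the second library higher as for Edn1, against 16.1 and 19.7 CPM. With 4 libraries in 2 groups this measure mostly reflects the size of the difference between the groups.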

How the data were processed

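The authors deposited raw counts per Entrez gene for 4 libraries of mAEC cells, made with a TruSeq kit from total RNA per the labels. The build mm10 and the tools Subread 1.4.6-p1, featureCounts and STAR 2.5.2b appear in the submitters' processing notes; their settings, the strand handling and the annotation release were not stated in those notes or the labels. Symbols came from RefSeq (GRCm38.p6), which matched 25275 of 27179 rows; the 1904 unmatched rows, with 6.31% of the counts, stayed in totals and tests.

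Differences were tested on the deposited counts in R 4.3.3 with edgeR 4.0.16: filterByExpr (minimum count 10, total 15), TMM scaling and the two-sided quasi-likelihood test without a replicate block, with 2 residual degrees of freedom, adjusted by Benjamini-Hochberg over all 13897 genes tested. A call is an adjusted p under 0.05. SE was taken as the size of the log2 fold change divided by the root of the F statistic. CPM uses TMM-scaled totals. Alternatives were other scalings and filters, a replicate block, a robust spread, each library left out in turn, DESeq2 1.42.0 and limma-voom (limma 3.58.1).

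The members, lists and tests were chosen with earlier results of these data known. Genes were named by a fixed rule: all members, up to 3 called genes per list with the largest change, 6 always given (Klf2, Gata2, Furin, Mme, Gnaq and Nos3), the 3 nearest in pattern to a called member, and called neighbours. Other list and neighbour genes were named after their values were seen. One gene called lower in the receptor coupling list is not reported here.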

Additional observations from a re-analysis of the deposited data

How the results depend on the processing

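Edn1 had log2 fold changes from -1.83 to -1.46 over 14 alternatives; since its low level was known when the family was chosen, this range is a description and no sign of stability. Ece1 stayed between -0.17 and -0.07. It gained a call, at -0.12 each time, with the robust spread, in limma-voom, under the crossed replicate block and without either control library. Ece2 was never called and ranged from -0.16 to 0.07. Its sign turned when conditioned medium replicate 1 (0.00) or control replicate 2 (0.07) was left out. The count of genes called, 2330, moved to 904 in DESeq2 and ranged from 569 to 3107 with a library left out, lowest without a conditioned medium library, where the spread comes from the control pair alone. The calls in the pathway lists, 23, moved to 11 in DESeq2 and ranged from 7 to 25 over the alternatives, with 7 and 8 without a conditioned medium library. The calls among neighbours, 6, moved to 2 in DESeq2 and ranged from 1 to 9. The cause of the difference in DESeq2 was not tested. With the replicate block 2671 genes were called, and Edn1 was at -1.67. The numbers are not stated to pair the libraries, and same-numbered libraries deviated from their group means with a correlation of -0.10 over 5871 genes. The crossed replicate block, added after the data were seen, called 2753 genes. Over 44 genes (members, called list genes and neighbours, and others with a fold change in the text) 530 of 614 fold changes with an adjusted p kept direction and side of the threshold, 70 lost a call, 12 gained 1 and 2 turned sign. DESeq2 gave no adjusted p for Ptgis (1.25) and Phactr1 (-1.09), which are left out of these counts. The depth sets the limit for the 4 members at or near 0, and 2 libraries per group limit the precision of every fold change.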
